A study of Arabidopsis thaliana with 30 samples.

Results

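PHV and LHW are a pair of transcription factor genes known for their part in building the vascular cylinder of the Arabidopsis root. They were picked by name, as the probe sets mapped to PHV (PHAVOLUTA, locus AT1G30490) and LHW (LONESOME HIGHWAY, locus AT2G27230). The rule used none of their values, but earlier results of these data were known when the 2 genes were chosen. Each had 1 probe set, so 2 of the 22746 probe sets other than Affymetrix controls were described, and both were among the 17038 that passed a filter on low signals. PHV was above percentile 40 of its array on 24 of the 30 arrays, and LHW on all 30.

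PHV encodes a class III homeodomain leucine zipper (HD-ZIP III) protein. Transcripts of this family are cut under the guidance of the microRNAs miR165 and miR166, which in the root are made in the endodermis, move into the stele and leave more HD-ZIP III transcript in the centre than at the edge, a gradient that patterns xylem. LHW encodes a basic helix-loop-helix (bHLH) protein that pairs with TMO5, drives the divisions that widen the vascular cylinder, and raises cytokinin synthesis in xylem precursors. The known work of both genes thus lies in the vascular cylinder. For LHW this account names no pattern of expression across cell types. No sequence of either gene is printed.

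Signals came from 30 Affymetrix ATH1 arrays, 3 for each of 5 cell types at each of 2 pH values. Seedlings of the Columbia ecotype spent 5 days on medium of pH 5.7 and then 24 h on medium of pH 4.6 or of pH 5.7. Both transfer media held 3 mM DMG, so the arrays at pH 5.7 are a control for acidity and also carry the transfer and the buffer. Roots were 6 days old when they were turned into protoplasts and sorted for GFP. The marker lines were Pet111::GFP for the columella root cap, pWER::GFP for epidermis with lateral root cap, pCOR315.1::GFP for cortex, pSCR::GFP for endodermis with quiescent center, and pWOL::GFP for stele. Each sorted population is what 1 promoter or enhancer line marks, and 2 of the 5 populations join cell types by their labels. RNA went through the Affymetrix two-cycle protocol. Nothing in the labels states whether the 3 replicates were grown or sorted apart, so each p-value reflects the spread among these arrays, which may be technical in part or in full. In such bulk material, fewer cells of a type and less RNA per cell cannot be told apart.

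The values are MAS5 signals, a linear probe set intensity, scaled by the authors to a trimmed mean of 250.0 on every array. Array medians ran from 43.8 to 71.7, and the highest 5 were on stele arrays. Tests are from limma on log2 of the signal plus 11.9, the percentile 25 of all signals (the pseudocount), with p-values adjusted over the 17038 probe sets and a threshold of 0.05. A value past that threshold is said to be called. Changes are pH 4.6 minus pH 5.7, ± after a signal is the SD, and ± after a log2 value is the standard error of the fit.

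The first question was where in the root each gene was expressed. PHV had its highest signals in columella, at 507, 598 and 508 at pH 4.6 and 412, 418 and 385 at pH 5.7. Stele came next, with 201, 241 and 443 at pH 4.6 and 195, 213 and 120 at pH 5.7. The 6 columella arrays did not all exceed the stele arrays, because the stele array at 443 lay above the 3 columella arrays at pH 5.7. Endodermis had 69.0, 77.5 and 79.5 at pH 4.6 and 80.2, 79.9 and 56.0 at pH 5.7. Epidermis had 32.6, 54.5 and 43.0 at pH 4.6 and 38.8, 51.7 and 33.9 at pH 5.7. Every endodermis array was above every epidermis array. Cortex had the lowest signals, with 5.00, 1.71 and 8.24 at pH 4.6 and 7.89, 21.5 and 17.4 at pH 5.7, and 4 of its 6 arrays lay under the pseudocount.

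**Figure D1:**
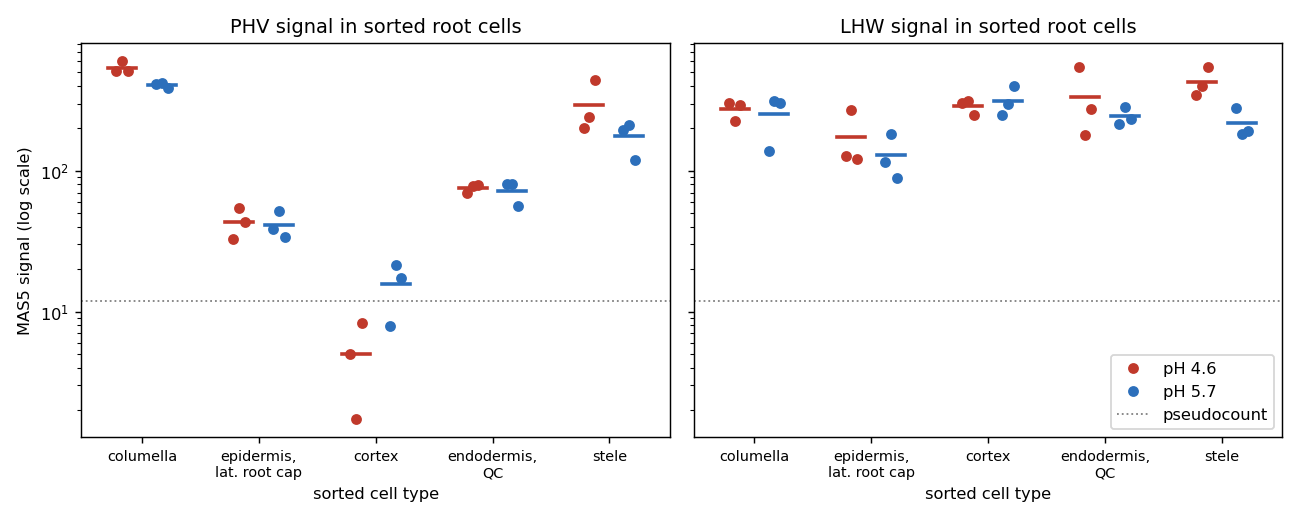
MAS5 signal (log axis) of PHV and of LHW on each of the 30 arrays by sorted cell type, pH 4.6 left of pH 5.7; points are arrays, bars are means of 3, and the dotted line is the pseudocount of 11.9. PHV spans from 1.71 in cortex to 598 in columella, whereas the lowest LHW signal is 88.3, in epidermis.

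Averaged over both pH values, PHV stood at 471 ± 80.8 in columella, 235 ± 109 in stele, 73.7 ± 9.61 in endodermis, 42.4 ± 9.10 in epidermis and 10.3 ± 7.58 in cortex (SD, n = 6 each). All 10 pairs of cell types were called, so no neighbours in this order were left undivided. The pair with the smallest log2 difference was epidermis minus endodermis, at -0.66 ± 0.18 (limma adjusted p = 0.00197). Columella exceeded stele by 1.05 ± 0.18 on the log2 scale, a 2.07-fold difference with a 95% interval of 1.61 to 2.68 (limma adjusted p = 7.15e-06). Columella exceeded cortex by 4.50 ± 0.18, the widest of the 10, where the cortex signals near the pseudocount make the log2 value smaller than the ratio of signals.

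Called pairs are common in these data, so the count of 10 has to be read against the background. The share of tested probe sets called was 65.7% for columella against epidermis, 66% for columella against cortex, 64.6% for columella against endodermis and 68% for columella against stele. It was 52.5% for epidermis against cortex, 63% for epidermis against endodermis, 51% for epidermis against stele, 50.2% for cortex against endodermis, 50.9% for cortex against stele and 36.3% for endodermis against stele. An F test over the 5 cell types called 89.5% of probe sets. PHV ranked 619 of 17038 in that F test, at percentile 96.4 (limma adjusted p = 1.09e-18).

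Against the mean of the other 4 cell types, PHV was higher in columella by 2.80 ± 0.14 log2 (limma adjusted p = 1.06e-16), where 72.5% of probe sets were called. It was also higher in stele by 1.48 ± 0.14, a 2.79-fold difference (limma adjusted p = 6.72e-10), where 47.4% were called. At pH 4.6 alone the columella difference was 2.99 and at pH 5.7 alone it was 2.61, both called, as were 60.2% and 64.6% of probe sets. The stele difference was 1.84 at pH 4.6 and 1.13 at pH 5.7, both called, as were 33.8% and 34.3% of probe sets. PHV was thus above the mean of the other populations in stele, the tissue it is known for, and higher still in the root cap line. With a pseudocount of 55.3, the median of all signals, the stele difference over both pH values was 0.94 and was still called.

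LHW had a much flatter profile. In stele its signals were 344, 397 and 543 at pH 4.6 and 280, 181 and 191 at pH 5.7. Cortex had 304, 312 and 250 at pH 4.6 and 248, 299 and 398 at pH 5.7. Endodermis had 546, 178 and 275 at pH 4.6 and 216, 282 and 232 at pH 5.7. The endodermis array at 546 was the highest LHW signal of all 30 arrays, and another array of its own group had 178. Columella had 301, 226 and 292 at pH 4.6 and 138, 312 and 303 at pH 5.7. Epidermis had 128, 269 and 121 at pH 4.6 and 116, 183 and 88.3 at pH 5.7.

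The LHW means over both pH values were 323 ± 137 in stele, 302 ± 54.6 in cortex, 288 ± 132 in endodermis, 262 ± 68.2 in columella and 151 ± 65.7 in epidermis (SD, n = 6 each). Of the 10 pairs, 4 were called, and each of the 4 set epidermis below another cell type. The log2 differences were -1.02 ± 0.23 for epidermis minus stele (limma adjusted p = 0.00057) and -1.02 ± 0.23 for epidermis minus cortex (0.000555). Epidermis minus endodermis was -0.88 ± 0.23 (0.00186), and columella minus epidermis was 0.79 ± 0.23 (0.00417). The other 4 cell types were not told apart from one another. The widest of those 6 differences was columella minus stele at -0.24, with a 95% interval of -0.72 to 0.24. The cell type F test of LHW was called (limma adjusted p = 0.000929), but it stood at percentile 24.5 of all probe sets.

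Over both pH values LHW in stele minus the mean of the rest was 0.35 log2, with a 95% interval of -0.02 to 0.73, and was not called (limma adjusted p = 0.119). Without endodermis replicate 1 at pH 4.6 it was 0.41 and was called (0.0433), and with equal array medians it was 0.10 (0.649), where the median of all probe sets moved by -0.26. At pH 4.6 alone it was higher in stele by 0.73 ± 0.26 (limma adjusted p = 0.0304), a 1.66-fold difference. That call was lost without stele replicate 2 at pH 4.6 (0.77, adjusted p = 0.0675), without stele replicate 3 at pH 4.6 (0.55, 0.204), and with array medians made equal (0.45, 0.148). At pH 5.7 alone the difference was -0.02 ± 0.26 (limma adjusted p = 0.957). In columella the same differences of LHW were 0.06 over both pH values, -0.03 at pH 4.6 and 0.15 at pH 5.7, and none was called.

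The name vascular regulators describes what both genes are known for, which is not in itself a pattern of signal across cell types. PHV was highest in the columella line, and LHW had its highest mean over both pH values in stele without standing apart from 3 other populations. That rank came from pH 4.6 (428 in stele), since at pH 5.7 stele had 217, below cortex (315), columella (251) and endodermis (243). The markers listed for columella (8 genes) and stele (12 genes) had no probe set with a single gene here, so these marker lists are not analysed here and both lines went unchecked by markers of their own. Markers of the outer tissues could be. The epidermal root hair expansins EXPA7 and EXPA18 summed to between 20.6 and 50.0 in columella at pH 4.6 and between 19.4 and 81.0 at pH 5.7. In epidermis itself the sum was 1046 to 1559 at pH 4.6 and 2809 to 8896 at pH 5.7. The 3 cortex markers summed to at most 65.5 on any columella array, and the 3 markers of endodermis with quiescent center to at most 79.7. No marker signal was listed at 0 on any array. Whether stele cells entered the columella sort was not tested.

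PHV has a close relative, PHB, in the same family. PHB and the other 3 HD-ZIP III genes (REV, ATHB8 and CNA) have no probe set with a single gene in the table used here, so 1 of 5 family members was measured. Whether the PHV probe set also binds PHB transcript was not tested.

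The next question was what low pH did to each gene in each cell type. For PHV the 3 columella signals at pH 4.6 (507 to 598) lay above the 3 at pH 5.7 (385 to 418), with means of 538 ± 52.4 at pH 4.6 and 405 ± 17.5 at pH 5.7 (SD, n = 3 each). The groups did not overlap, which was so for 41.1% of all probe sets in columella. The log2 change was 0.40 ± 0.25, and it was not called (limma adjusted p = 0.304), where 20.5% of probe sets were called in that cell type. A fit to the 6 columella arrays alone, which uses the smaller spread of those arrays, gave the same 0.40 with an adjusted p of 0.0431.

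In stele PHV averaged 295 ± 130 at pH 4.6 and 176 ± 49.3 at pH 5.7 (SD, n = 3 each). The groups overlapped, since the array at 201 at pH 4.6 lay under the array at 213 at pH 5.7. The log2 change was 0.67 ± 0.25, with a 95% interval of 0.15 to 1.19, and it was not called (limma adjusted p = 0.111), where 7.05% of probe sets were. Replicate 3 carried much of it in both groups. Without replicate 3 at pH 4.6 the value was 0.34, without replicate 3 at pH 5.7 it was 0.43, and without both it was 0.11 (adjusted p = 0.923). Without replicate 1 at pH 4.6 the value was 0.89 and it was called (adjusted p = 0.0452).

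In cortex PHV averaged 4.98 ± 3.26 at pH 4.6 and 15.6 ± 6.97 at pH 5.7 (SD, n = 3 each). The groups overlapped, with 8.24 the highest at pH 4.6 and 7.89 the lowest at pH 5.7, and no fold is given because both means are near or under the pseudocount. The change of -0.69 ± 0.25 log2 was just outside the threshold (limma adjusted p = 0.0559), where 19.1% of probe sets were called. It was called with a pseudocount of 1 (-1.54, adjusted p = 0.0036), after quantile normalization (-0.75, 0.0407) and with equal array medians (-0.79, 0.0212). Leaving out any of 5 single arrays from cortex or stele also took it past the threshold, with values of -0.69 to -0.91. It shrank to -0.23 (0.426) with the median of all signals as pseudocount. The size of the PHV low pH change in cortex thus turns on the pseudocount, and its call also on scaling, the filter and single arrays. The 3 markers of endodermis with quiescent center summed to 422 to 805 on cortex arrays at pH 4.6 and 1311 to 4059 at pH 5.7. They were lower at pH 4.6 in endodermis itself too. The part of other cells in the cortex values of PHV was not tested.

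In the other populations the PHV means were nearly equal. Epidermis had 43.3 ± 11.0 at pH 4.6 and 41.5 ± 9.19 at pH 5.7, a log2 change of 0.04 with a 95% interval of -0.47 to 0.56. Endodermis had 75.3 ± 5.54 at pH 4.6 and 72.02 ± 13.9 at pH 5.7, a change of 0.07 with an interval of -0.45 to 0.59. Neither was called, where 10.2% of probe sets were called in epidermis and 16.6% in endodermis. Averaged over the 5 cell types the PHV change was 0.10 ± 0.11 (limma adjusted p = 0.522), where 42.1% were called.

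For LHW the 3 stele signals at pH 4.6 (344, 397 and 543) all lay above the 3 at pH 5.7 (181, 191 and 280). The means were 428 ± 103 at pH 4.6 and 217 ± 54.4 at pH 5.7 (SD, n = 3 each). The groups did not overlap, which was so for 25.7% of all probe sets in stele. The log2 change was 0.94 ± 0.33, a 1.92-fold difference with a 95% interval of 1.2 to 3.08. It stood at percentile 94.9 of the absolute stele changes but was not called (limma adjusted p = 0.0837). Leaving out endodermis replicate 1 at pH 4.6, the array with the LHW signal of 546, left the stele value the same and lowered its adjusted p to 0.0434. That was the only 1 of 40 alternatives in which the LHW stele change was called. With 1 array or both stele replicate 3 arrays left out, the value ran from 0.69 to 1.13 (limma adjusted p 0.0434 to 0.509).

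**Figure D2:**
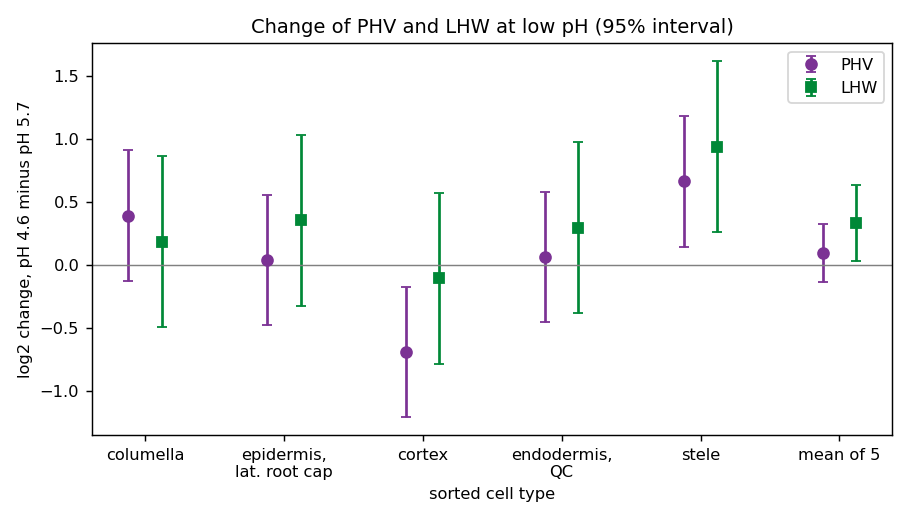
Log2 change of PHV (circles) and LHW (squares), pH 4.6 minus pH 5.7, in each sorted cell type and as the mean of the 5; bars are 95% intervals from the fit before adjustment over probe sets. The LHW intervals in stele (0.26 to 1.62) and for the mean of the 5 (0.03 to 0.64) lie off 0. The PHV intervals in cortex and stele do so too, yet no adjusted p passed the threshold.

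Elsewhere the LHW groups overlapped. Columella had 273 ± 40.7 at pH 4.6 and 251 ± 98.0 at pH 5.7, a log2 change of 0.19 ± 0.33. Epidermis had 173 ± 83.6 at pH 4.6 and 129 ± 48.8 at pH 5.7, a change of 0.36 ± 0.33 that was 0.0090 without replicate 2 at pH 4.6 (signal 269) and 0.14 without replicate 3 at pH 5.7. Cortex had 288 ± 33.7 at pH 4.6 and 315 ± 76.0 at pH 5.7, a change of -0.10 ± 0.33. Endodermis had 333 ± 190 at pH 4.6 and 243 ± 34.3 at pH 5.7, a change of 0.30 ± 0.33. None of these 4 was called, with adjusted p-values of 0.577 to 0.880. Groups failed to overlap for 23.3% of probe sets in epidermis, 37% in cortex and 30.7% in endodermis, so separated groups were frequent in these cell types and neither gene was among them.

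The LHW change averaged over the 5 cell types was 0.34 ± 0.15, with a 95% interval of 0.03 to 0.64 (limma adjusted p = 0.069). It was positive in 4 of the 5 cell types. The call turned on single arrays. Leaving out any 1 of 6 arrays brought the adjusted p to between 0.0213 and 0.0486, with values of 0.37 to 0.41.

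Whether the response differed between cell types was tested directly. For PHV the F test of the 5 changes gave an adjusted p of 0.0692 by limma, at percentile 84.9 of all probe sets, where 12.5% were called. For LHW it gave 0.498. The PHV change in stele minus the mean of the other 4 was 0.71 ± 0.28 (limma adjusted p = 0.274; 0.39 without stele replicate 3 at pH 4.6 and 0.47 without replicate 3 at pH 5.7), and that of LHW was 0.76 ± 0.37 (0.414), where 0.939% of probe sets were called. In cortex the same difference was -0.98 ± 0.28 for PHV (limma adjusted p = 0.0651) and -0.55 ± 0.37 for LHW (0.542), where 2.21% were called. The stele differences of LHW at pH 4.6 and at pH 5.7 are therefore not shown to differ from each other. Both genes had their largest positive change in stele and a negative change in cortex, and neither contrast was called.

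The stele arrays also differed in other measures. EXPA7 and EXPA18 together reached 548, 714 and 933 on the stele arrays at pH 4.6 and 1547, 1485 and 3303 at pH 5.7. The highest of these 6 sums, 3303, was on replicate 3 at pH 5.7, the array with the lowest stele signal of PHV (120). The lowest stele signal of LHW (181) was on replicate 2 at pH 5.7. Within pH 4.6 the order was the other way, since replicate 3 had the highest sum (933) and the highest PHV (443) and LHW (543). EXPA7 also fell in epidermis, the tissue it marks, by 1.77 ± 0.46 log2 (limma adjusted p = 0.0124). The 3 cortex markers summed to between 133 and 159 on stele arrays at pH 4.6 and between 301 and 442 at pH 5.7. They were lower at pH 4.6 in cortex itself too, at 2642 to 3871 against 6896 to 7894 at pH 5.7. The 3 markers listed for endodermis with quiescent center (the receptor kinase gene GSO1, AT1G61590 and AGL42) summed to between 1485 and 2211 at pH 4.6 and between 1874 and 2956 at pH 5.7. In endodermis itself they summed to 4268 to 8581 at pH 4.6 and 10543 to 11273 at pH 5.7. AGL42 was higher in cortex (56.6 to 72.4 at pH 4.6, 90.8 to 112 at pH 5.7) than in endodermis (36.0 to 54.1 and 60.2 to 77.9). The sums rest mainly on GSO1 and AT1G61590. The markers rest on 2 of 8 listed genes for epidermis, 3 of 3 for cortex and 3 of 10 for endodermis.

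Signal level and RNA measures moved too. Array medians in stele were 65.1, 71.7 and 68.3 at pH 4.6 and 63.8, 64.7 and 58.4 at pH 5.7, lowest on replicate 3 at pH 5.7. The ratio of 3′ to 5′ actin probe sets was 12.3, 13.4 and 15.5 at pH 4.6 and 9.55, 10.4 and 21.6 at pH 5.7, and 21.6 was the highest of the 30 arrays. With array medians made equal the stele changes were 0.55 for PHV and 0.83 for LHW. The part of other cells, signal level and RNA quality in the stele values was not tested.

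**Figure D3:**
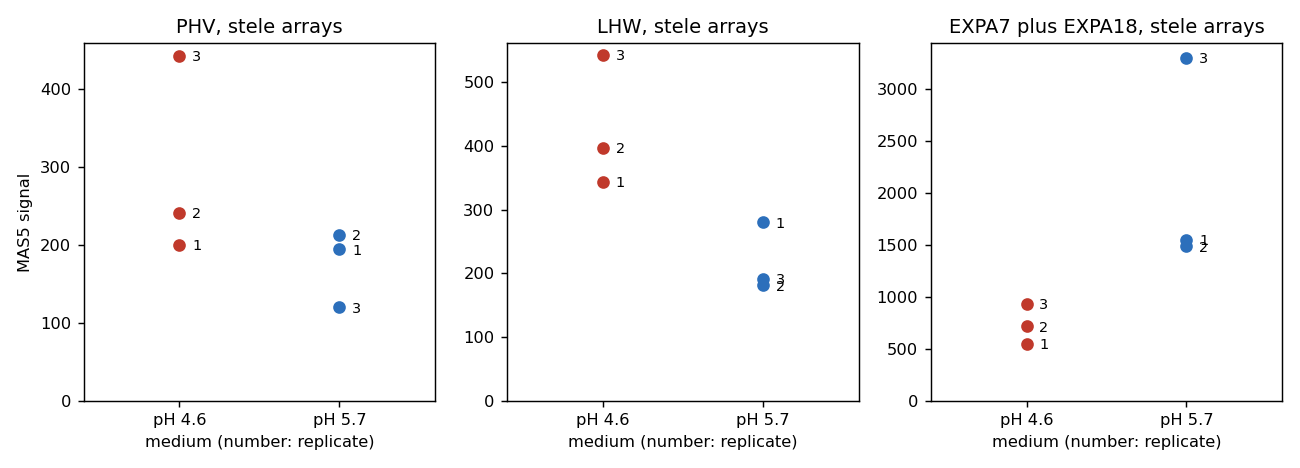
MAS5 signal (linear axes from 0) of PHV, LHW and the sum of EXPA7 and EXPA18 on the 6 stele arrays, pH 4.6 left of pH 5.7, with the replicate number beside each point. PHV and LHW are highest on replicate 3 at pH 4.6 (443 and 543), and the expansin sum is highest on replicate 3 at pH 5.7 (3303).

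The spread of the 30 log2 signals was divided into parts for each gene. For PHV cell type made up 95.4% of it, pH 0.0913%, the cell type by pH part 1.98% and the spread between replicates 2.49%. For LHW cell type made up 42.8%, pH 8.36%, the cell type by pH part 8.61% and replicates 40.2%. The medians over all tested probe sets were 64.9%, 3.32%, 5.37% and 17.5%, in the same order. The SD between replicates was 0.31 log2 for PHV, close to the median of 0.32, and 0.45 log2 for LHW, at percentile 81.6. The precision of the LHW comparisons is lower for that reason, and 3 arrays per group limit both.

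**Figure D4:**
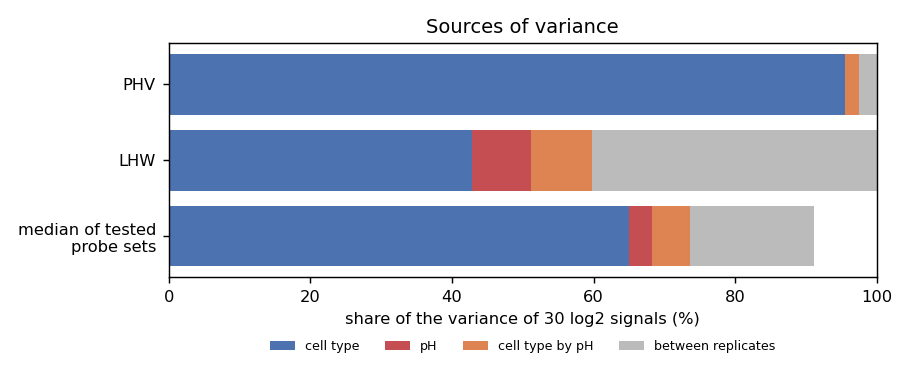
Share (%) of the variance of 30 log2 signals that lies between cell types, between pH values, in the cell type by pH part and between replicates, for PHV, LHW and the tested probe sets. The lowest bar stacks the median of each share and so does not reach 100; cell type takes 95.4% for PHV and 42.8% for LHW.

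PHV and LHW followed each other only weakly. Pearson's r of their log2 signals was 0.17 over the 30 arrays, 0.19 over the 10 group means and 0.31 for the deviations from group means. Among 9513 other probe sets with a single gene, LHW ranked 4489 in likeness to PHV, and PHV ranked 3779 in likeness to LHW. These are descriptions over arrays that share cell types and scaling.

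The 8 genes most like PHV over the 30 arrays had r between 0.91 and 0.96, and between 0.95 and 0.98 over the 10 group means. They were AT5G56790, AT1G63420, AT2G34140, AT1G27690, AT1G01640, AT1G66180, AT1G01725 and AT5G62710, all without a symbol. Each had its highest mean in columella, its second highest in stele and its lowest in cortex, as PHV had. Their choice by r over these same arrays favours such a shared order, so it is not a separate result. AT5G56790, the most alike (r = 0.96), had means of 1105 ± 113 in columella, 349 ± 128 in stele and 25.7 ± 1.89 in cortex (SD, n = 6). In stele at low pH, where 7.05% of all probe sets were called, AT1G27690 alone of the 8 was called higher (log2 0.78, limma adjusted p = 0.036). Its deviations within groups followed those of PHV most closely of the 8 (r = 0.70). AT5G56790 had a stele change of 0.82 and AT1G63420 one of 0.68, neither called (adjusted p = 0.0727 and 0.105).

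The 8 genes most like LHW had r between 0.80 and 0.85 over the 30 arrays. They were AT3G12390, AT5G51140, AT5G39600, AT3G02080, AT3G60210, scpl42 (a serine carboxypeptidase-like gene), AT1G52300 and AT2G18910. All 8 had their lowest mean in epidermis, as LHW had, which their choice by r favours. For deviations from group means their r with LHW was 0.69 to 0.90, and that of the 8 genes most like PHV with PHV was 0.16 to 0.70. Both ranges follow in part from the choice of genes, because 40.2% of the LHW variance and 2.49% of the PHV variance lay within groups. Over all single-gene probe sets, 506 of 9513 probe sets (5.32%) had a within-group r above 0.6 with LHW, and 36 (0.378%) had one with PHV. Deviations of LHW had r of 0.37 with the array median and 0.39 with the ubiquitin 3′ to 5′ ratio, and those of PHV had 0.44 and -0.19. With the actin ratio they had 0.07 (LHW) and -0.08 (PHV). Signals over the 30 arrays, which hold the cell type differences too, had other values. For PHV, r was 0.76 with the array median, 0.10 with the ubiquitin ratio and 0.64 with the actin ratio. For LHW these were 0.36, -0.09 and 0.33. The part of array measures in the cell type levels was not tested. In epidermis at low pH, where 10.2% of all probe sets were called in either direction, 3 of the 8 genes most like LHW were called higher, namely AT3G12390 (log2 0.93), AT3G02080 (0.82) and AT1G52300 (0.77), where LHW had 0.36 and was not called.

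**Figure D5:**
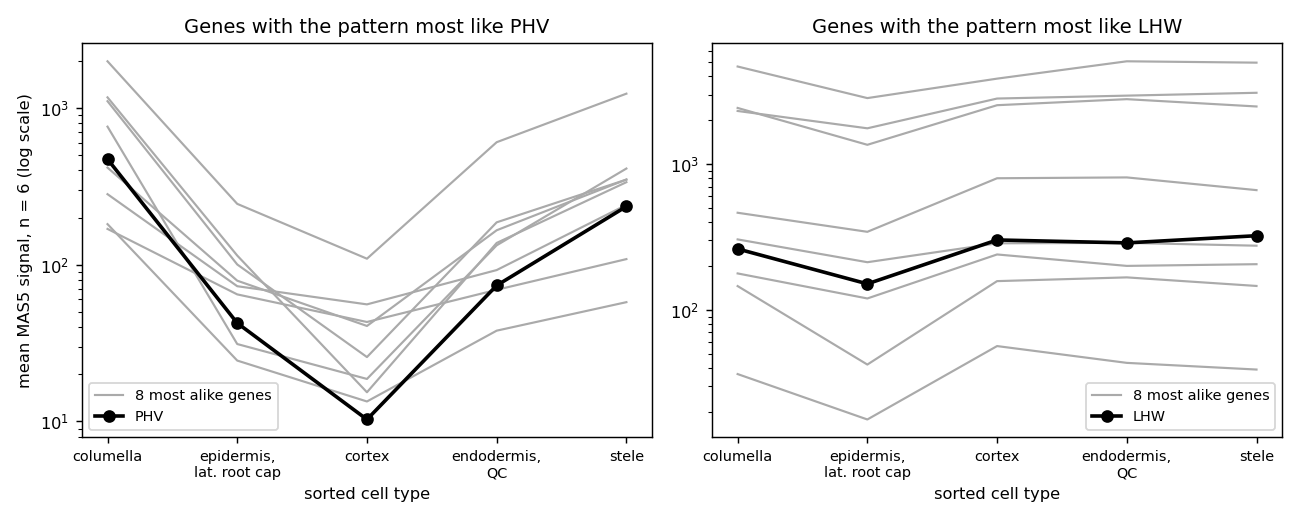
Mean MAS5 signal (log axis, n = 6 arrays, both pH values) by sorted cell type of PHV and LHW (black) and of the 8 genes with the highest Pearson r to each over 30 arrays (grey). All 8 genes at left are highest in columella and lowest in cortex, and all 8 at right are lowest in epidermis. Their choice by r favours this.

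Of the genes that act on HD-ZIP III transcripts or proteins (18 listed), 1 was measured. SE (SERRATE, AT2G27100) encodes a zinc finger protein needed to process microRNA precursors, miR165 and miR166 included. SE rose at low pH by a mean of 0.43 ± 0.08 log2 over the 5 cell types (limma adjusted p = 6.65e-05), and its change was positive in all 5. By cell type it was called in endodermis alone, at 164 ± 21.7 at pH 4.6 against 107 ± 14.9 at pH 5.7 (SD, n = 3 each; log2 0.57 ± 0.18, limma adjusted p = 0.0262). In stele SE had 126 ± 15.6 at pH 4.6 and 84.0 ± 13.5 at pH 5.7, a change of 0.53 ± 0.18 that was not called (0.0664). The changes of SE were not shown to differ between cell types (F test adjusted p = 0.869). Across cell types SE was higher in columella than in the rest by 0.73 log2 and lower in stele by 0.54.

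The list of genes around LHW (its partners, its direct targets and the factors that restrain it, 22 in all) had 4 measured members, LHW among them. The other 3, AT5G09460, AT5G50010 and AT2G28510, carry no symbol in the annotation used here. Each was higher in stele than in the mean of the other populations, by 1.08 ± 0.20, 1.27 ± 0.20 and 1.22 ± 0.16 log2 (limma adjusted p = 5.92e-05, 3.97e-06 and 3.96e-07), where LHW had 0.35 and was not called. In that contrast 47.4% of all probe sets were called. Endodermis came next to stele for AT5G09460 (42.4 ± 6.09 against 54.1 ± 17.4) and AT5G50010 (62.2 ± 28.9 against 68.1 ± 25.4). AT2G28510 had a higher mean in endodermis (203 ± 47.3) than in stele (175 ± 38.3, SD, n = 6 each). Over the 4 members and 5 cell types, 0 pH changes were called higher and 1 lower by limma, where between 7.05% (stele) and 20.5% (columella) of all probe sets were called. The lower one was AT2G28510 in columella, at 31.5 ± 8.65 at pH 4.6 against 99.4 ± 25.1 at pH 5.7 (SD, n = 3 each; log2 -1.35 ± 0.29, limma adjusted p = 0.00115). In stele AT2G28510 had 188 ± 26.2 at pH 4.6 and 162 ± 49.8 at pH 5.7, a change of 0.24 that was not called. AT5G09460 in stele had 67.5 ± 7.98 at pH 4.6 and 40.7 ± 12.7 at pH 5.7 (0.61 ± 0.36, not called), and AT5G50010 there had 58.5 ± 25.7 at pH 4.6 and 77.6 ± 25.9 at pH 5.7 (-0.38 ± 0.35, not called).

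Other vascular genes were sparsely covered. Of 24 genes of vascular differentiation, 2 had a probe set of their own and 1 was tested, OPS (OCTOPUS, AT3G09070), a membrane protein of phloem precursors. OPS had 29.8 ± 9.02 in stele at pH 4.6 and 9.64 ± 2.11 at pH 5.7, a log2 change of 0.93 ± 0.42 that was not called (limma adjusted p = 0.196). Of 26 cytokinin signalling genes, 2 had a probe set and neither passed the filter on low signals. None of 12 auxin genes of vascular tissue had one.

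Other members of the families of PHV and LHW were chosen after their values were seen. HAT3.1, a homeobox gene, was called in none of the 5 cell types, as PHV was not. The share of all probe sets called in either direction was 20.5% in columella, 10.2% in epidermis, 19.1% in cortex and 16.6% in endodermis. Against that background HAT2, of the HD-ZIP II class, was called lower at pH 4.6 in 3 of 5 cell types. In cortex HAT2 had 753 ± 200 at pH 4.6 and 1746 ± 214 at pH 5.7 (SD, n = 3 each; log2 -1.23 ± 0.29, limma adjusted p = 0.0031), where the PHV change was -0.69 and not called. HAT2 was also called lower in epidermis (-0.94) and in endodermis (-1.07), where PHV had 0.04 and 0.07. A match of bHLH to gene symbols and synonyms, which need not find the whole family, gave 6 other tested genes. Of these, ILR3 was called higher in columella (log2 0.62 ± 0.21, limma adjusted p = 0.033). AT1G22490 (bHLH094) was called higher in cortex (1.07 ± 0.32, 0.0167) and endodermis (0.95 ± 0.32, 0.04), at mean signals between 8.53 and 59.8. The other 4 (bHLH104, bHLH115, bHLH34 and bHLH121) were called in none of the 5 cell types, as LHW was not. In stele, where 7.05% of all probe sets were called, none of the 6 was.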

How the data were processed

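The deposited table holds 1 MAS5 signal per probe set and array, a linear intensity made by the authors with MAS5 per the submitters' processing notes, with no version given; a genome build is not given in the sources used here, so no coordinates are printed. Arrays were used as scaled by the authors. No 2 arrays held identical values. Genes were named from the platform annotation, where 13513 probe sets had 1 gene, 503 several and 8730 none, and 13436 of the single-gene probe sets matched TAIR10.1. Of 22810 probe sets 64 controls were set aside, and a probe set was kept where 3 or more arrays had it above their own percentile 40.

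A mean per group was fitted to log2(signal + 11.9) with limma 3.58.1 (trend) in R 4.3.3, with 20 residual degrees of freedom plus a prior of 8.32, and Benjamini-Hochberg adjustment. The procedure was tested on simulated data. Named genes were PHV, LHW, tested members of the HD-ZIP III, regulator and LHW lists, up to 4 called members of each other list, the 8 genes most like each, and markers. OPS and the family members are named beyond that rule. Members and lists were chosen with earlier results of these data known. Alternatives were the pseudocount, scaling, filter, robust moderation, replicate block, a fit per cell type and each array left out.

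Replicate numbers recur in every group. Deviations of same-numbered arrays at both pH values correlated above 0.1 in 6 of 15 pairs (r -0.14 to 0.21), so the numbers were not used as pairs.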

Additional observations from a re-analysis of the deposited data

How the results depend on the processing

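Over 52 values of PHV and LHW and 1946 recomputed values, 1876 kept their direction and their side of the threshold. Of the 23 called values, 22 did so under every alternative run, and the exception was LHW in stele minus the rest at pH 4.6. MAS5 signals near the pseudocount, as for PHV in cortex, and 3 arrays per group limit the rest. Making array medians equal moved the median of all probe sets by -0.26 log2 for stele minus the rest, by -0.28 at pH 4.6 and by 0.39 for cortex minus stele, and LHW shifted with it. The cause of each change of call below was not tested.

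With a pseudocount of 1, PHV in cortex had a pH change of -1.54 (adjusted p = 0.0036), its cortex difference from the other cell types was -1.85, the mean PHV change was -0.060, and the F test of PHV gave an adjusted p of 0.0288. With the median of all signals as pseudocount, the PHV stele change was 0.56 and was called (0.0436), whereas the PHV low pH change in cortex was -0.23 (0.426) and its cortex difference -0.48. After quantile normalization the PHV change was -0.045 in epidermis and -0.75 in cortex (called), LHW in columella minus the rest was -0.057, and LHW in cortex minus stele was 0.052. With equal array medians the PHV change was -0.072 in epidermis and -0.79 in cortex (called), its cortex difference was -1.02 (called), and its F test gave 0.0484. The same scaling gave LHW values of 0.45 for stele minus the rest at pH 4.6 (no longer called), 0.10 for stele minus the rest over both pH values, -0.012 for columella minus the rest, 0.38 for cortex minus stele and 0.026 for endodermis minus stele. With the filter at percentile 60 the PHV cortex change of -0.69 was called (0.0457). The fit to 6 arrays called the PHV columella change of 0.40.

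Leaving out single arrays gave ranges of PHV changes of -0.098 to 0.19 in epidermis, -0.91 to -0.53 in cortex, -0.078 to 0.14 in endodermis and 0.34 to 0.89 in stele. The PHV stele difference ran from 0.39 to 0.94. The PHV cortex difference ran from -1.20 to -0.82, past the threshold without any of 3 arrays, and the adjusted p of its F test from 0.0334 to 0.183. LHW changes ran from -0.18 to 0.38 in columella, 0.0090 to 0.62 in epidermis, -0.26 to 0.072 in cortex, -0.12 to 0.66 in endodermis, 0.76 to 1.13 in stele and 0.25 to 0.41 on average. LHW in stele minus the rest ran from 0.26 to 0.42 over both pH values, 0.55 to 0.87 at pH 4.6 and -0.21 to 0.088 at pH 5.7. LHW in columella minus the rest ran from -0.036 to 0.24 over both pH values, -0.12 to 0.091 at pH 4.6 and -0.039 to 0.52 at pH 5.7. LHW in columella minus endodermis ran from -0.27 to 0.12, cortex minus endodermis from -0.039 to 0.35, cortex minus stele from -0.10 to 0.084 and endodermis minus stele from -0.36 to 0.030. Leaving out both replicate 3 arrays of stele was added after seeing the data, and so were the contrasts that set the pH change of stele or cortex against the other cell types.

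Counts of called probe sets moved by over 1.5 times in stele (1201, with 321 to 1505 under alternatives), epidermis (1731, with 460 to 2658) and endodermis (2822, with 1268 to 3105). They did so too for the stele difference (160, with 46 to 360) and the cortex difference (377, with 152 to 554). With a replicate block the PHV low pH change in stele was 0.67 (adjusted p = 0.113) and the LHW low pH change in stele was 0.94 (0.0966), and the block changed 0 calls of the 52 values.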
